A study of Mus musculus with 4 samples.

Results

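The genes described here are 44 genes of the dividing cell, 21 of DNA replication and S phase and 23 of G2 phase and mitosis, out of 32285 genes in the count matrix. They were chosen by their known role in the cycle, with earlier results of these data known, and all 44 were found in the matrix. The S list held Mcm2 to Mcm7, Pcna, Tyms, Rrm1, Rrm2, Dut, Gins2, Cdc6, Cdc45, Cdt1, Uhrf1, Slbp, Ung, Chaf1b, Pola1 and Tipin. The G2/M list held Top2a, Mki67, Ccnb1, Ccnb2, Ccna2, Cdk1, Cdc20, Birc5, Bub1, Bub1b, Aurka, Aurkb, Cenpa, Cenpe, Cenpf, Plk1, Ube2c, Tpx2, Kif11, Kif20b, Nusap1, Hmmr and Stmn1.

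They were followed through the immune infiltrate of mouse melanomas of 4 kinds, profiled by single-cell RNA-seq with 1 sample for each kind. All were grown from YUMM1.7 cells (Braf V600E, Cdkn2a-/-) that carried ovalbumin, in Rag2-/- mice, which make no T or B cells of their own. Each mouse received OT-1 T cells, specific for ovalbumin, on day 7, and the tumours were taken on day 10, 72 h after the transfer, so that the T cells measured are transferred cells. NTT was the therapy-naive tumour (line 3A6). RTT was grown from a BRAF-inhibitor-resistant line (2B12, with inducible Cas9). RTT_ROSA26 carried a guide to the Rosa26 locus as control, and RTT_PTGS12KO guides that knock out Ptgs1 and Ptgs2, the cyclooxygenases that make prostaglandins. Resistant lines stayed in dabrafenib in culture. The ovalbumin lines are clones, so each tumour stands for 1 line of its kind, and live CD45+ cells were sorted.

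A cell that enters the cycle first licenses its replication origins with the MCM helicase, loaded by Cdc6 and Cdt1, and then raises nucleotide supply and polymerase factors under E2F control. Genes of G2 and mitosis peak later, when the repressive DREAM complex at the CHR element of their promoters has been exchanged for MuvB with the activators B-MYB and FOXM1, beside NF-Y at CCAAT boxes. In tumours, T and NK cells divide after activation, macrophages can divide in place under CSF1, and neutrophils and most circulating monocytes have left the cycle.

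The promoters of the 2 lists differed in how often they held these elements. In a window from 250 bases before to 50 after the start (RefSeq, GRCm38.p6, 37 of the 44 genes matched), the CHR element TTTGAA, read on both strands, occurred in 14 of 19 G2/M genes (73.7%), 2 of 18 S genes (11.1%) and 20.2% of all 27025 genes. The CCAAT box occurred in 16 of 19 (84.2%), 12 of 18 (66.7%) and 41.1%. Both together occurred in 13 of 19 G2/M genes (68.4%), 2 of 18 S genes (11.1%) and 7.97% of all genes. An E2F element (TTTCCCGC, TTTGGCGC or TTTGGCGG) occurred in 0 of 19 G2/M genes, 7 of 18 S genes (38.9%) and 2.39% of all genes. These are matches of letters, and of the 101 matches in 39 member promoters 2 pairs overlapped.

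Shown are the 200 bases before the start for 3 G2/M genes and 2 S genes whose levels recur below, on the strand of the gene. They were picked because these bases hold the marked elements. Of such genes with 1 promoter they had the highest levels in macrophages. Members of higher level without the elements, among them Pcna, Slbp and Dut, were passed over. Top2a (topoisomerase II, which untangles chromosomes) lies at chr11:99024190-99024389 on the minus strand, Ube2c (the ubiquitin carrier of the anaphase-promoting complex) at chr2:164769729-164769928 on the plus strand, and Mki67 (the Ki-67 coat of mitotic chromosomes) at chr7:135716380-135716579 on the minus strand. Capitals mark TTTGAA and CCAAT or their reverse complements, and in Ube2c a CCAAT box and a reversed one overlap.
Top2a: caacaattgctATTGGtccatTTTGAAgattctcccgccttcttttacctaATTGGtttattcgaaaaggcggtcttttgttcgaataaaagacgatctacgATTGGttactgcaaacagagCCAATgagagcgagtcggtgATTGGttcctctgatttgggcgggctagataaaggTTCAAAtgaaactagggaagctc
Ube2c: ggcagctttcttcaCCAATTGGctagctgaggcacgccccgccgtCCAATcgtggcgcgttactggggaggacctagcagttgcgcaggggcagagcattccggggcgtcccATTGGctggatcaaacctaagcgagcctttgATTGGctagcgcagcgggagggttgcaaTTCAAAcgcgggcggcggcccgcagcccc
Mki67: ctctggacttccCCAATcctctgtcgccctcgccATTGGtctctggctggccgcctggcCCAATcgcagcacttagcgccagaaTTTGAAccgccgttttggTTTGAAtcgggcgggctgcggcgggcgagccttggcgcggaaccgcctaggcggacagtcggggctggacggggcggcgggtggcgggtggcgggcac
The S genes Mcm6, at chr1:128359706-128359905 on the minus strand, and Mcm5, at chr8:75109309-75109508 on the plus strand, are subunits of the replicative helicase. In these capitals mark only the E2F element.
Mcm6: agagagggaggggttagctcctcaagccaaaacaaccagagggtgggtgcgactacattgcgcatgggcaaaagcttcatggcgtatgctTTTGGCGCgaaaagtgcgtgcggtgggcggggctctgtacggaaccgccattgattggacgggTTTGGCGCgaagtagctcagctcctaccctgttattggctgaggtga
Mcm5: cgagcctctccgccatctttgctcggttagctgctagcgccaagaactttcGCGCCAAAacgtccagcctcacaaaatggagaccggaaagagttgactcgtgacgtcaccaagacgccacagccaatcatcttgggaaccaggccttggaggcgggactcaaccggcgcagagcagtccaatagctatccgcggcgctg
Mcm6 held the E2F element 2 times and Mcm5 1 time. Over the window of 250 bases before to 50 after the start these also held 2 and 3 CCAAT boxes, which are not capitalised, and no CHR element.

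The matrix held 33368 cells, 8266 from NTT, 7970 from RTT, 6836 from RTT_ROSA26 and 10296 from RTT_PTGS12KO, with a median of 7293, 12627, 13280 and 12219 unique transcripts (UMIs) per cell. The 4 samples were pooled and loaded 3 times. No barcode was shared by 2 samples of a load, and 98 were seen in more than 1 load. Because depth differed, every cell was thinned to 3000 UMIs and called past the G2/M or S cut when 3 or more UMIs of that list remained. The macrophage class joined the TAM types and Ctsk_Macro of the deposited annotation. Neutrophils, known as cells that have left the cycle, were read beside the other classes as a reference for the cut. With 1 sample per tumour no test between tumours was possible, and the 95% intervals cover counting error only. Sets of 4 values follow the order NTT, RTT, RTT_ROSA26, RTT_PTGS12KO. A gap between tumours cannot be told apart from a gap between samples.

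Of the 17 annotated types, TAM_cycling was named by the depositors from genes of the cycle, and its high levels are its definition. Top2a and Nusap1 were among its 10 leading genes, beside Pbk, Tk1 and Pclaf. The markers of NK cells (4 of 10 leading genes), T cells (6), CCR7+ dendritic cells (5) and neutrophils (3) headed the types of those names. Myofibrobl had none of its collagen markers among its leading genes, and cDC1s, cDC2s and mast cells had 2, 1 and 2, so these keep the names of the annotation. Melanoma and B cell markers were at or near 0 in the classes described.

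The classes that held the cells past the G2/M cut differed between the tumours. In NTT, 374 cells lay past the G2/M cut, of which 55.6% were NK cells, 14.97% macrophages, 13.4% T cells and 8.56% monocytes. In RTT macrophages made up 87.0% of 943 such cells, with 5.41% cDC2s and 4.98% Myofibrobl cells. In RTT_ROSA26 they made up 93.8% of 1536 cells. In RTT_PTGS12KO 80.9% of 1824 cells were macrophages and 9.70% NK cells. These shares follow both the rate of cycling in a class and the number of its cells, so the classes are taken in turn.

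**Figure D1:**
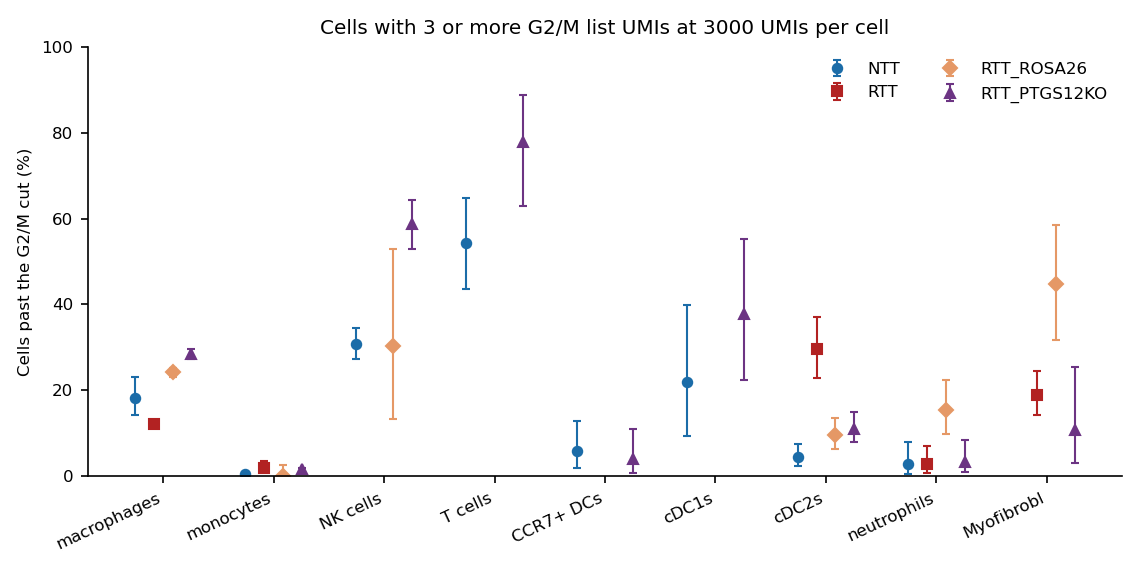
Share of cells (%) with 3 or more G2/M UMIs after thinning to 3000 UMIs, by class and tumour, with exact 95% intervals for counting error. Classes with under 20 cells are not drawn. Of those drawn T cells of RTT_PTGS12KO stand highest, at 77.8%, and monocytes are at or under 1.95% in all 4 tumours. The cDC2s of RTT (29.7%) and the neutrophils (15.4%) and Myofibrobl cells (44.8%) of RTT_ROSA26 lie above the same class in the other tumours.

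The neutrophils past the G2/M cut numbered 3 of 106 (2.83%) for NTT, 4 of 143 (2.80%) for RTT and 4 of 119 (3.36%) for RTT_PTGS12KO. RTT_ROSA26 stood apart at 15.4% (22 of 143, interval 9.90 to 22.4). Their median UMIs were 9261, 7381, 11086 and 8976. The first 3 shares lay near 3%. In NTT, RTT and RTT_PTGS12KO 88.3, 84.2 and 87.0% of the neutrophils below the cut held 3 or more macrophage-marker UMIs. In RTT_ROSA26 the 22 neutrophils past the cut carried less than the others of the neutrophil list (17144 against 39252 counts per 1000000 UMIs, CPM) and more UMIs (median 20532 against 9898). All 22 held 3 or more macrophage-marker UMIs, as did 87.6% of the others. Without such cells 15 neutrophils were left, of which 0 were past the cut, which allows up to 3 of the 15. The loads gave 7.27 to 23.4%. Whether these neutrophils were dividing was not tested.

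Monocytes lay below the neutrophils of the same tumour. The share past the G2/M cut was 1.95% for RTT (10 of 512), 1.54% for RTT_PTGS12KO (61 of 3950) and 0.496% for NTT (32 of 6457). In RTT_ROSA26 it was 0 of 138 cells, which allows up to 2.17% (3 cells). RTT monocytes past the cut had 36032 CPM of macrophage markers against 16893 in those below, and 1424 against 4185 CPM of monocyte markers. The larger groups differed less in macrophage markers, at 6296 against 6132 CPM in NTT and 10922 against 8434 in RTT_PTGS12KO. Their monocyte markers were at 6887 against 8932 and 3607 against 6642 CPM. The S share was higher, from 3.62 to 5.86%, and Pcna and Slbp were the S genes with the highest level in monocytes. Pcna, the polymerase clamp, which also serves DNA repair, was at 89.2, 84.2, 88.8 and 81.9 CPM. Slbp, the binder of histone mRNA, was at 53.1, 48.1, 57.9 and 55.1 CPM. Rrm2, the S-phase subunit of ribonucleotide reductase, stood at 0.72, 0.20, 0 and 1.54 CPM, and Top2a at 4.07 to 8.98 CPM.

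Macrophages were least often past the G2/M cut in RTT, at 12.2% (820 of 6708, interval 11.4 to 13.0). NTT stood at 18.3% (56 of 306, 14.1 to 23.1), RTT_ROSA26 at 24.2% (1440 of 5955, 23.1 to 25.3) and RTT_PTGS12KO at 28.4% (1476 of 5195, 27.2 to 29.7). The shares past the S cut were 28.4, 14.1, 29.6 and 30.7%. RTT had the lowest share on both lists. Its share was 6.08 percentage points below NTT (interval of the difference 2.06 to 10.9) and 12.0 below RTT_ROSA26 (10.6 to 13.3). On the S list the gaps were 14.3 and 15.5 points. RTT_PTGS12KO was 4.23 points above RTT_ROSA26 on the G2/M list (2.59 to 5.87), and 1.13 points above it on the S list, where the interval spanned 0 (-0.58 to 2.84).

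The NTT value rests on few cells. Its loads gave 14.8 to 27.4% past the G2/M cut, against 12.0 to 12.4% in RTT, and without load 2 the gap between NTT and RTT was 2.51 points (-1.69 to 7.87). Without thinning the shares were 39.3, 38.0, 51.5 and 57.2%, and the gap of NTT over RTT was 1.27 points (-4.15 to 6.94). It was 2.92 points with a cut of 5 UMIs (-0.30 to 7.07), 3.48 without Stmn1 (-0.05 to 7.88) and 3.72 at 2000 UMIs (0.21 to 8.10). RTT and RTT_ROSA26 both keep Ptgs1 and Ptgs2, and their gap of 12.0 points was larger than the 4.23 points between RTT_PTGS12KO and RTT_ROSA26. In macrophages the first gap was 11.4 to 12.9 points with any load left out, and the second 3.03 to 5.80.

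TAM_cycling cells made up 25.6% (79 of 308), 13.0% (873 of 6734), 30.6% (1834 of 5993) and 35.2% (1832 of 5207) of macrophages. Of the macrophages past the G2/M cut, 30.4, 32.0, 19.4 and 14.97% carried another name. Without TAM_cycling the macrophage shares were 7.49, 4.49, 6.76 and 6.57%. RTT_PTGS12KO then stood 0.19 points below RTT_ROSA26 (-1.32 to 0.95), whereas in TAM_cycling alone it stood 5.10 points above it (68.6 against 63.5%, interval 2.04 to 8.16). RTT_ROSA26 stayed 2.27 points above RTT (1.35 to 3.22) and NTT 3.0 above RTT (0.18 to 7.21). The types behind these values differed, since 190 of 227 NTT cells were TAM_H2Ab1, against 63 of 5837 in RTT. Within TAM_H2Ab1 NTT stood 0.48 points above RTT (-9.37 to 7.08).

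Outside TAM_cycling the share past the cut differed by macrophage type. TAM_H2Ab1, rich in MHC class II, was at 8.42, 7.94, 9.09 (1 of 11 cells) and 9.67%. TAM_C1q, the complement-rich type, was at 5.71, 8.78 and 8.18% in RTT, RTT_ROSA26 and RTT_PTGS12KO. TAM_Spp1 was lower, at 1.32, 1.42 and 3.16%, with RTT_PTGS12KO 1.75 points above RTT_ROSA26 (0.63 to 2.96). In NTT there were only 12 and 20 cells of these last types, with none past the cut. Ctsk_Macro, the osteoclast-like type, had 11.0, 15.25 and 10.2% past the cut in the resistant tumours and 1 of 5 cells in NTT. In RTT_ROSA26 all 4 types lay under its neutrophil share (15.4%), and TAM_Spp1 lay under the neutrophil share of each tumour. All 22 neutrophils of RTT_ROSA26 past the cut held macrophage-marker UMIs, so that share is not a reference free of macrophage transcripts. TAM_C1q and TAM_H2Ab1 of the other tumours with such cells past the cut lay above the neutrophils of the same tumour.

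Among the S genes of macrophages Pcna had the highest level, at 149, 109, 178 and 176 CPM. These are 3' end tags, so levels do not scale with transcript length. Slbp followed at 67.4, 56.5, 72.1 and 82.1 CPM. The nucleotide enzyme Dut, which keeps uracil out of DNA, was at 52.9, 34.6, 72.3 and 74.8 CPM, and the helicase subunits Mcm6 and Mcm3 at 51.2, 35.0, 81.5 and 66.5 CPM and at 54.1, 34.2, 72.1 and 65.4 CPM. All 5 were lowest in RTT. Cdc6 (an origin licensing factor) and Ung (the uracil glycosylase) were under 10 CPM on average and left 19 of 21 S genes for ratios between tumours.

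Of these 19, 17 were higher in NTT than in RTT (3504 of all 7061 genes tested were). Their median log2 ratio was 0.60 against -0.00 over all genes, and 1 passed a log2 ratio of 1 (4.74% of all genes passed in this direction). It was Cdc45, the helicase cofactor that fires origins, at 15.01 against 4.29 CPM (log2 ratio 1.60). Rrm2 had the lowest ratio, -0.17, at 15.01 and 17.1 CPM. In RTT_ROSA26 against RTT all 19 were higher (4363 of all 7061 genes were), with a median of 1.02 (all genes 0.06), and 10 passed a log2 ratio of 1 (0.524% of all genes). The range ran from Slbp at 0.35 to Mcm5 at 1.22 (46.5 against 19.4 CPM). In RTT_PTGS12KO against RTT_ROSA26 6 of 19 were higher (2457 of all 7061 genes were), with a median of -0.11 (all genes -0.08). Of the 19 none passed 1 in either direction (2.52% of all genes passed upwards and 0.878% downwards). They ran from Cdt1, the licensing factor, at -0.37 (23.2 against 30.3 CPM) to Slbp at 0.19. With TMM scaling 9 of 19 were higher and the median was -0.02.

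Of the G2/M genes Stmn1, which depolymerises microtubules, had the highest level, at 151, 139, 245 and 257 CPM. Top2a was at 94.5, 71.7, 130 and 181 CPM. Cenpa, the histone of the centromere, was at 78.7, 95.9, 113 and 120 CPM, and Birc5, the survivin subunit of the chromosomal passenger complex, at 67.2, 65.3, 115 and 121 CPM. Ube2c was at 72.1, 66.4, 104 and 120 CPM. RTT_PTGS12KO was highest for these 5 genes, and RTT was lowest for 4, with NTT lowest for Cenpa. Mki67 was at 35.4, 43.1, 68.4 and 80.5 CPM.

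All 23 G2/M genes passed the level filter. In NTT against RTT 14 were higher (3504 of all 7061 genes were), with a median log2 ratio of 0.09 and none past 1 in either direction. The mitotic kinase Aurka had the highest ratio (0.55, 14.5 against 9.63 CPM) and Cenpf, of the outer kinetochore, the lowest (-0.74, 15.7 against 26.9 CPM). In RTT_ROSA26 against RTT all 23 were higher (4363 of all 7061 genes were), with a median of 0.71 and 0 past 1. They ran from Cenpa at 0.24 to the cyclin Ccna2 at 0.96 (38.9 against 19.6 CPM). In RTT_PTGS12KO against RTT_ROSA26 19 of 23 were higher (2457 of all 7061 genes were), with a median of 0.13 and none past 1. Without TAM_cycling 7 G2/M genes passed the filter, of which 0 were higher (2320 of all 6854 genes were), with a median of -0.49. Over all macrophages, TAM_cycling included, Top2a had the highest ratio, 0.47. Cdk1, the mitotic kinase, had the lowest there, -0.11 (68.5 against 74.2 CPM). TMM scaling, which moved the median of all genes from -0.08 to 0.01 here, left 22 of 23 higher and turned Cdc20, Hmmr and Plk1 to positive.

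**Figure D2:**
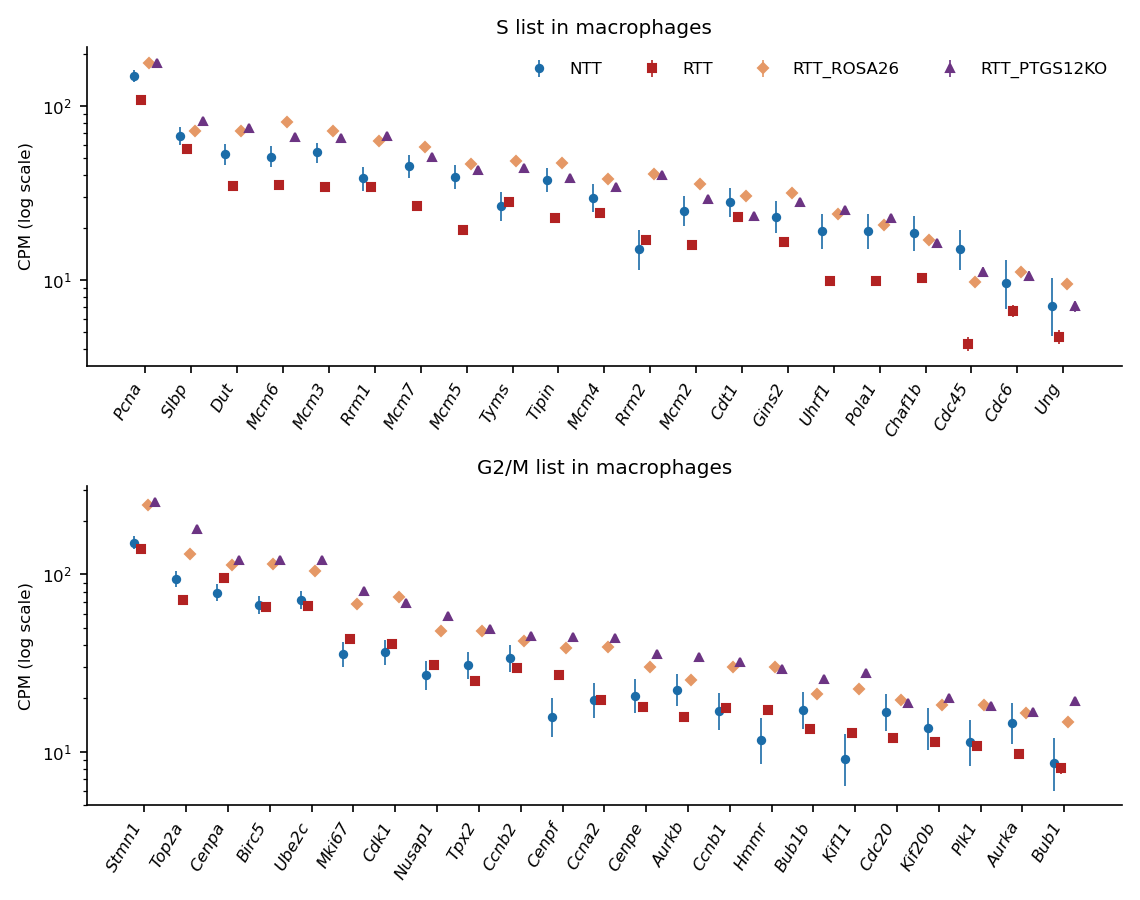
Level in macrophages (CPM, log axis) of each S and G2/M gene in the 4 tumours, with exact 95% Poisson intervals. RTT lies lowest for most S genes, Cdc45 reaching 4.29 CPM against 15.01 in NTT, and RTT_ROSA26 and RTT_PTGS12KO lie close together on most genes, with Top2a at 130 and 181 CPM.

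The balance of the lists was lowest in NTT. Summed over macrophages, the S genes gave 771, 542, 1008 and 957 CPM and the G2/M genes 825, 800, 1313 and 1466 CPM. The log2 ratio of G2/M to S UMIs was 0.10 in NTT (0.03 to 0.17) and 0.56, 0.38 and 0.61 in the resistant tumours. The NTT value rests on loads that differed, with S sums of 675, 778 and 847 CPM and G2/M sums of 660, 1321 and 614 CPM in loads 1, 2 and 3, so that G2/M exceeded S only in load 2. In the other tumours G2/M exceeded S in each load. Stmn1 weighed on this: without it the ratios were -0.19, 0.28, 0.08 and 0.34, in the same order. Cells past the S cut alone were 18.6, 8.54, 14.8 and 14.0%, and past the G2/M cut alone 8.50, 6.65, 9.45 and 11.7%. Both cuts were passed by 9.80, 5.58, 14.7 and 16.7%.

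Monocytes lay far on the S side, at log2 ratios of -1.71, -0.87, -1.25 and -1.21, with 219 to 267 CPM of S genes and 76.4 to 143 CPM of G2/M genes. Macrophages without TAM_cycling lay on it too, at -0.38, -0.41, -0.17 and -0.31. TAM_Spp1 was at -1.07, -0.97 and -0.71 and TAM_C1q at -0.27, -0.26 and -0.24 in RTT, RTT_ROSA26 and RTT_PTGS12KO. NK cells were at 0.50 in NTT and 0.79 in RTT_PTGS12KO, T cells at 0.25 and 0.30. Of classes with 40 or more cells the highest value was that of cDC2s in RTT, 1.55, against 0.35, 0.60 and 0.40 in NTT, RTT_ROSA26 and RTT_PTGS12KO.

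**Figure D3:**
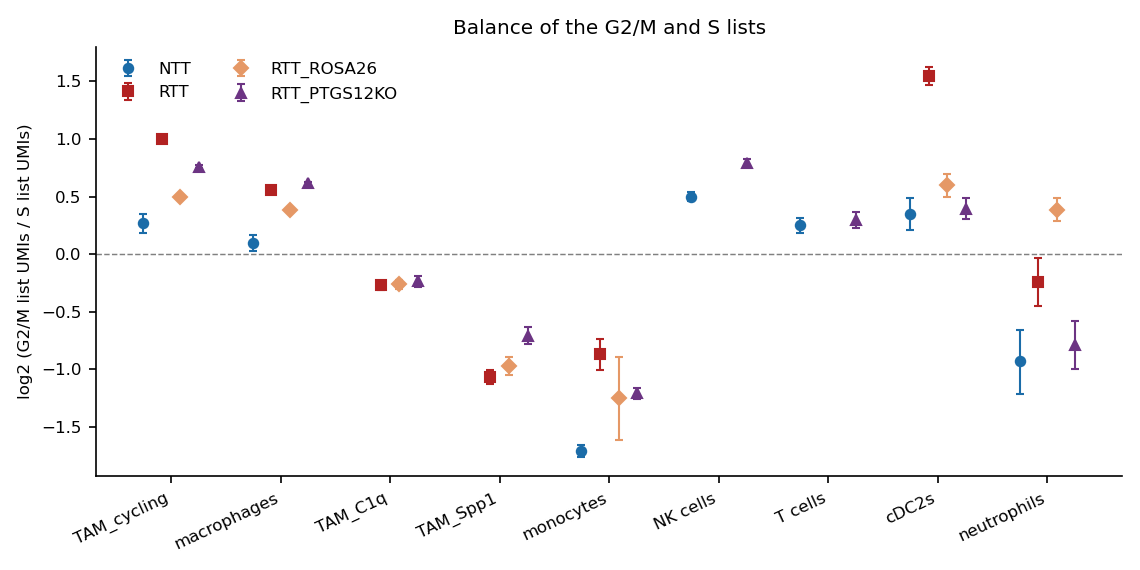
Log2 ratio of summed G2/M to summed S UMIs by class and type in each tumour, for entries of 40 or more cells, with exact 95% intervals for counting error. Values above 0 hold more G2/M than S UMIs. Monocytes lie between -1.71 and -0.87, TAM_cycling between 0.27 in NTT and 1.00 in RTT, and cDC2s of RTT at 1.55.

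Within TAM_cycling, where division is given by the name, the members still differed between tumours in which part of the cycle they marked. The S list summed to 1515, 1675, 1858 and 1723 CPM and the G2/M list to 1827, 3360, 2626 and 2915 CPM. The log2 ratios of G2/M to S were 0.27, 1.00, 0.50 and 0.76. Past the G2/M cut were 49.4, 64.1, 63.5 and 68.6% of TAM_cycling cells, NTT 14.7 points below RTT (3.43 to 25.9). In NTT against RTT 0 of 23 G2/M genes were higher, with a median log2 ratio of -0.90, beside -0.08 over all 7227 genes past the filter, of which 58.6% were lower. Cenpf had the lowest, -1.84 (35.8 against 131 CPM). Of genes named after their values were seen, Hmmr and Kif11, which act on the spindle, were at -1.74 and -1.38 and Plk1, the polo kinase, at -1.41. Aurkb, of the passenger complex, had the highest, -0.43. The S genes had a median of -0.13, with 7 of 21 higher, from Rrm2 at -1.03 to Cdc45 at 0.83.

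RTT_ROSA26 also lay below RTT for 23 of 23 G2/M genes of TAM_cycling, with a median of -0.37 (all genes 0.03, 41.5% lower), from Cenpf at -0.69 to Cdk1 at -0.18. Of its S genes 17 of 21 were higher, with a median of 0.13, from Tyms, the thymidylate synthase, at -0.10 to Tipin, a replication fork factor, at 0.32. In RTT_PTGS12KO against RTT_ROSA26 18 of 23 G2/M genes were higher and 15 of 21 S genes lower, with medians of 0.13 and -0.16 (all genes -0.08, 63.5% lower). Top2a had the highest G2/M ratio, 0.44 (384 against 282 CPM), and Cdk1 the lowest, -0.14. These contrasts share samples, and NTT has 79 TAM_cycling cells.

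**Figure D4:**
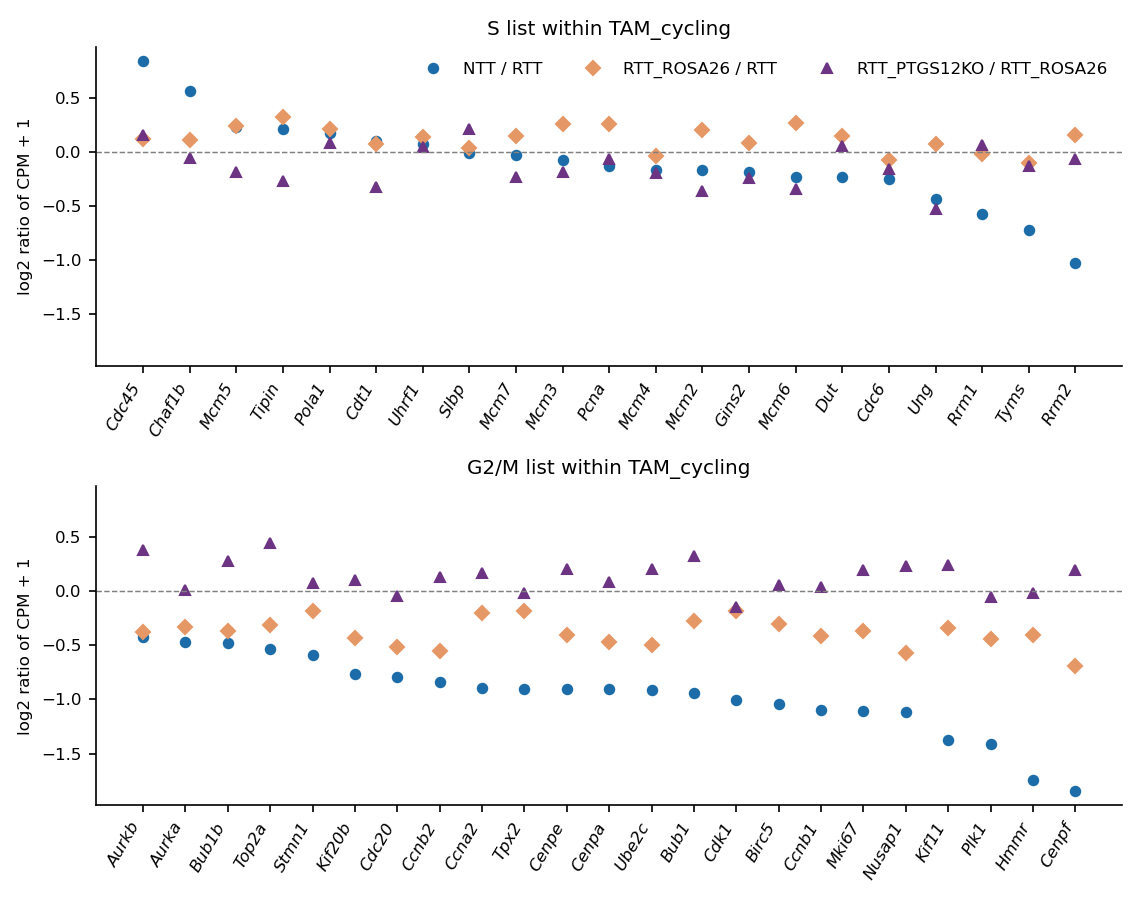
Log2 ratio of CPM + 1 in TAM_cycling for each S and G2/M gene in NTT against RTT, RTT_PTGS12KO against RTT_ROSA26 and RTT_ROSA26 against RTT. All 23 G2/M genes lie below 0 in NTT against RTT, down to Cenpf at -1.84, whereas the S genes lie on both sides of 0, from -1.03 to 0.83.

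NK cells were numerous enough for a comparison only in NTT and RTT_PTGS12KO, a pair chosen after the cell numbers were seen. They were past the G2/M cut in 30.8% of cells in NTT (208 of 676, interval 27.3 to 34.4) and 58.8% in RTT_PTGS12KO (177 of 301, 53.0 to 64.4), a gap of 28.0 points (21.4 to 34.4). On the S list the shares were 35.8 and 63.5%, a gap of 27.7 points. With any load left out the G2/M gap was 26.3 to 29.1 points. RTT had 6 of 12 and RTT_ROSA26 7 of 23 NK cells past the cut, with macrophage markers at 16490 and 10181 CPM, against 3334 in NTT and 3929 in RTT_PTGS12KO.

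The S genes summed to 1245 CPM in NTT and 1860 in RTT_PTGS12KO NK cells, the G2/M genes to 1759 and 3213. All 23 G2/M genes were higher in RTT_PTGS12KO (3401 of all 6778 genes were), with a median log2 ratio of 0.96 (all genes 0.00), and 9 passed 1 (1.30% of all genes). Plk1 had the highest ratio, 1.45 (13.6 against 38.7 CPM), and Cenpa the lowest, 0.31 (208 against 257 CPM). The level of Top2a was 227 in NTT and 445 CPM in RTT_PTGS12KO, of Stmn1 355 and 594 CPM, and of Nusap1, a spindle protein, 83.6 and 189 CPM. Of the S genes 20 of 20 past the filter were higher, with a median of 0.52 and 1 past 1, namely Rrm2 (56.8 against 131 CPM, 1.19). Cdt1 had the lowest S ratio, 0.06.

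NK cells past the cut carried somewhat less of the NK list than the rest, 10866 against 13948 CPM in NTT and 7639 against 9736 CPM in RTT_PTGS12KO. Cells with 3 or more macrophage-marker UMIs were 63.5 against 59.0% and 60.5 against 55.6%. Median UMIs were 11397 against 6641 and 17214 against 11266. Without cells holding 3 or more macrophage-marker UMIs the gap between the tumours was 27.6 points (17.2 to 37.4), and at 2000 UMIs, at 5000 UMIs and without thinning it was 27.5, 27.9 and 28.2 points.

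T cells, all of them transferred OT-1 cells, had higher shares than any other class in these tumours. They were past the G2/M cut in 54.3% of cells in NTT (50 of 92, interval 43.6 to 64.8) and 77.8% in RTT_PTGS12KO (35 of 45, 62.9 to 88.8), with 60.9 and 75.6% past the S cut. The gap was 23.4 points (6.30 to 37.5) on the G2/M list and 14.7 points (-2.34 to 29.1) on the S list. Without load 2 the G2/M gap was 20.2 points (-1.80 to 37.7), with a cut of 5 UMIs 13.2 points (-4.48 to 29.7) and without cells holding macrophage-marker UMIs 18.9 points (-0.69 to 34.9), all of which span 0. RTT and RTT_ROSA26 had 1 and 2 T cells. In RTT_PTGS12KO against NTT the G2/M genes had a median log2 ratio of 0.24, with 21 of 23 higher and none past 1. They ran from Cenpf at -0.13 to the cyclin Ccnb1 at 0.54. Of all 6719 genes 3386 were higher and 1.56% passed 1, with a median of 0.00. The S genes had a median of 0.11, with 16 of 21 higher and none past 1, from Mcm2 at -0.30 to Tyms at 0.67.

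Levels of single S genes differed between lymphocytes and macrophages by unequal amounts. The level of Dut was 461 CPM in NTT T cells and 570 in those of RTT_PTGS12KO, 246 and 392 in NK cells, and 52.9 and 74.8 in macrophages. Its log2 ratio of T cells to macrophages was 3.10 in NTT and 2.91 in RTT_PTGS12KO, against a median over the S genes of 1.37 and 1.31. Rrm2 followed at 2.96 and 2.21. Cdt1 was near equal, at 0.13 and 0.20. In NK cells against macrophages the same genes stood at 2.20 and 2.37 (Dut), 1.85 and 1.68 (Rrm2) and -0.51 and -0.19 (Cdt1). These genes were named after their values were seen.

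**Figure D5:**
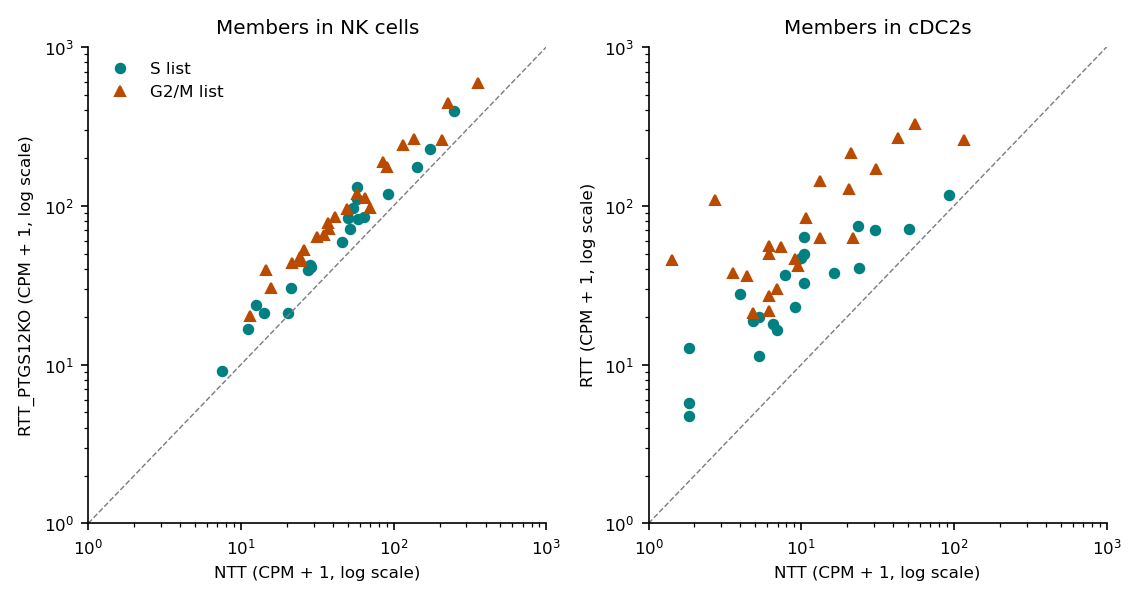
Level (CPM + 1, log axes) of each S and G2/M gene in NK cells of RTT_PTGS12KO against NTT and in cDC2s of RTT against NTT, with the line of equality dashed. All 23 G2/M genes lie above the line in NK cells, Top2a at 445 against 227 CPM, and in cDC2s Top2a lies at 267 CPM in RTT against 41.8 in NTT. Genes near 1 on an axis rest on few UMIs.

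Among dendritic cells, cDC2s stood out in RTT. There 29.7% were past the G2/M cut (51 of 172, interval 22.9 to 37.1), against 4.36% for NTT (12 of 275, 2.28 to 7.50), 11.1% for RTT_PTGS12KO (38 of 343) and 9.47% for RTT_ROSA26 (27 of 285). RTT was 25.3 points above NTT (18.2 to 32.7) and 20.2 above RTT_ROSA26 (12.7 to 27.9). On the S list the shares were 8.36, 26.7, 14.7 and 9.62%. RTT was high in each load, 22.4 to 33.9%, and the gap to NTT was 23.6 to 28.2 points with any load left out. RTT_PTGS12KO was 6.72 points above NTT (2.46 to 10.9), and 1.61 above RTT_ROSA26 (-3.30 to 6.34), whose share lay below that of its neutrophils. The last difference turned to between -0.19 and -5.43 points at 2000 UMIs, at 5000 UMIs, without thinning, without Stmn1 and without load 1, and on the S list RTT_PTGS12KO was 5.12 points below RTT_ROSA26.

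In cDC2s the G2/M genes summed to 399, 2274, 783 and 651 CPM and the S genes to 313, 777, 518 and 495 CPM. Stmn1 was at 54.6, 328, 122 and 108 CPM, Top2a at 41.8, 267, 78.8 and 79.5 CPM and Ube2c at 20.0, 213, 54.3 and 36.9 CPM. RTT was highest for each, and Pcna differed least of these, at 91.6, 116, 95.9 and 102 CPM. Cenpf had 4 UMIs in NTT (1.705 CPM, 0.465 to 4.37) and 228 in RTT (107 CPM, 93.7 to 122). In this direction 5.71% of all 6581 genes passed a log2 ratio of 1 (RTT_ROSA26 against RTT 3.63%). Some members passed the filter only through RTT, so no count over them is given. Monocyte markers in the cDC2 class were at 5915, 992, 892 and 2873 CPM, highest in NTT, beside cDC2 markers at 1931, 2075, 2070 and 2004 CPM, and the part of such cells in the gaps was not tested. RTT cDC2s past the cut had 1898 CPM of cDC2 markers against 2184 in the rest and 2988 against 3587 CPM of macrophage markers. Without cells holding 3 or more macrophage-marker UMIs the RTT share was 36.0% (89 cells, interval 26.1 to 46.8) and that of NTT 3.41% (176 cells).

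Other classes were small. CCR7+ dendritic cells were past the cut in 5.75% of cells in NTT (5 of 87) and 3.90% in RTT_PTGS12KO (3 of 77), a gap of -1.85 points (-9.31 to 5.82). The 5 NTT cells had 15300 CPM of macrophage markers against 1184 in the rest. For cDC1s it was 7 of 32 in NTT (21.9%) and 14 of 37 in RTT_PTGS12KO (37.8%), with 3 of 7 and 2 of 10 in RTT and RTT_ROSA26. Mast cells of RTT_ROSA26 had 9 of 24. Their macrophage markers were at 11174 CPM, against 1010 in RTT and 735 in RTT_PTGS12KO, and their mast markers at 11815 CPM, against 34718 and 11613. Of Myofibrobl cells 26 of 58 (44.8%) were past it in RTT_ROSA26, 47 of 248 (19.0%) in RTT and 4 of 37 (10.8%) in RTT_PTGS12KO, with RTT_ROSA26 25.9 points above RTT (12.7 to 39.3) on the G2/M list and 5.85 points (-6.57 to 19.7) on the S list. The type named Macro had 0 of 20, 1.03%, 1.60% and 10.4% (10 of 96), with RTT_PTGS12KO 8.82 points above RTT_ROSA26 (2.65 to 16.6), and 1.62 points above it on the S list (-6.20 to 10.2). Macrophage markers in this type were at 15748, 36734, 37476 and 9933 CPM and cDC1 markers at 968, 447, 386 and 1163 CPM. The part of this make-up in the gap was not tested.

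Other genes of replication and mitosis, outside the 44, were read in macrophages for comparison. Of 16 replication genes 15 passed the level filter. Their medians were 0.47 in NTT against RTT (15 of 15 higher) and 0.81 in RTT_ROSA26 against RTT (15 of 15 higher, 4 past 1). In RTT_PTGS12KO against RTT_ROSA26 the median was 0.00 (8 of 15 higher, and 11 with TMM). Of all 7061 genes 3504, 4363 and 2457 were higher in these 3 contrasts, and 0.524% passed 1 in the second. Pclaf, the PCNA clamp factor, was at 115, 91.0, 176 and 234 CPM, Gmnn, the geminin that blocks relicensing, at 73.1, 52.4, 82.1 and 83.9 CPM, and the ligase Lig1 at 42.8, 31.9, 69.4 and 63.9 CPM. Of 19 mitosis genes 16 passed, with medians of 0.27 (14 of 16 higher), 0.75 (15 of 16) and 0.16 (14 of 16, and 16 with TMM). Cks2 and Cks1b, subunits of Cdk complexes, were at 84.2, 57.8, 78.7 and 78.1 CPM and at 59.3, 44.3, 76.0 and 88.5 CPM, and the condensin Smc4 at 66.7, 44.1, 73.9 and 91.8 CPM. Pttg1, the securin, stood at 65.0, 32.7, 31.9 and 32.4 CPM, highest in NTT. The ratios ran from Tk1 (0.15) to Pold1 (0.78) and from Anln (-0.11) to Pttg1 (0.97) in NTT against RTT. In RTT_PTGS12KO against RTT_ROSA26 they ran from Tk1 (-0.36) to Pclaf (0.41) and from Nuf2 (-0.08) to Smc4 (0.31). In RTT_ROSA26 against RTT they ran from Rpa1 (0.52) to Tk1 (1.28) and from Pttg1 (-0.03) to Racgap1 (0.90).

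Upstream of replication, the D cyclins Ccnd1 and Ccnd2, which drive G1, were highest in NTT macrophages, whereas Ccnd3 was at 42.3, 30.2, 29.1 and 44.3 CPM. Ccnd1 was at 221, 66.8, 123 and 169 CPM and Ccnd2 at 159, 45.8, 40.6 and 47.9 CPM (log2 ratios of NTT to RTT 1.71 and 1.78), and the kinase Cdk4 at 55.9, 61.8, 91.6 and 74.0 CPM. Monocyte markers moved with the tumours in the macrophage class, at 2539, 412, 391 and 820 CPM, and macrophage markers summed to 18680, 39560, 31632 and 22511 CPM. Monocytes of NTT held Ccnd2 at 122 CPM and Cdkn1a at 727 CPM. The part of these cells in the levels was not tested. In the list of inhibitors, Cdkn1a (p21) was at 424, 332, 246 and 406 CPM, with a log2 ratio of 0.72 in RTT_PTGS12KO against RTT_ROSA26, and the antiproliferative Btg1 and Btg2 at 745, 656, 482 and 668 and at 208, 125, 110 and 162 CPM. Among growth regulators Csf1r, the CSF1 receptor, was at 364, 469, 470 and 395 CPM, Csf1 at 5.41, 32.6, 11.7 and 6.94 CPM, and the transcription factor Maf at 209, 483, 386 and 249 CPM. The medians of the G1 list (11 of 15 genes past the filter) and the inhibitors (10 of 11) were 0.23 and 0.27 in NTT against RTT. They were -0.12 and 0.14 in RTT_PTGS12KO against RTT_ROSA26, and 0.56 and 0.01 in RTT_ROSA26 against RTT. The extremes of the first contrast were E2f3 (-0.17) and Ccnd2, and Cdkn2c (-0.31) and Btg2 (0.73). Those of the second were Myc (-0.63) and Ccnd3 (0.59), and Rbl2 (-0.22) and Cdkn1a. Those of the third were Ccnd2 (-0.17) and Ccne2 (1.17), and Btg1 (-0.44) and Rbl1 (0.72). Of the growth regulators named, Csf1 had log2 ratios of -2.39, -0.68 and -1.40 in the 3 contrasts.

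Macrophages past the G2/M cut were then set against those below both cuts, within each tumour (56 against 193, 820 against 5315, 1440 against 3631 and 1476 against 2993 cells). The cells past the cut had more UMIs, at medians of 16049 against 10129, 17683 against 12215, 19969 against 11496 and 20769 against 13340, and whether depth or the mix of types had a part in what follows was not tested. Several cell cycle genes outside the lists were higher in 4 of 4 tumours. Ccne2, the E cyclin of the G1/S transition, was higher by log2 ratios of 3.30 to 4.42, the inhibitors Cdkn2c and Cdkn2d by 2.65 to 3.27 and 1.47 to 1.96, and Rbl1 (p107) by 1.97 to 2.17. Btg1 was lower in 4 of 4 tumours (-0.71 to -0.27).

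The hypoxia and matrix genes of the Spp1 state were lower in macrophages past the cut of the resistant tumours. In NTT Fn1, the fibronectin gene, was higher (1.18), as were Cd9 (0.60) and Spp1 (0.51). Vegfa was lower in 4 of 4 tumours (-1.43 to -0.82), as was Thbs1 (-1.50 to -0.92), and the median over the 6 genes of that state was 0.24 in NTT, with 3 of 6 lower, and -0.81, -1.10 and -0.81 in the others, with 6 of 6 lower. Over all genes past the level filter 48.8, 38.0, 37.6 and 36.6% were lower. Monocyte genes had medians of 0.06, -0.67, -1.11 and -0.01, with 2, 5, 5 and 3 of 5 lower. The 8 genes of the C1q state had medians of -0.37, 0.00, 0.27 and -0.06. Among them Apoe, the lipid carrier, was lower in 4 of 4 tumours (-1.05 to -0.38), whereas the complement genes C1qa and C1qc were higher in 3 of 4. MHC class II genes had medians of -0.03, 0.14, -0.44 and 0.11. Interferon-stimulated genes were at -0.01, 0.26, -0.09 and 0.26. Genes here were named after their values were seen.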

How the data were processed

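Single-cell RNA-seq of sorted CD45+ cells was made with 10x 3' chemistry and CellPlex multiplexing oligos, which also remove doublets between samples. The authors ran Cell Ranger multi 6.1.1 on mm10 and left in cells of more than 1000 genes whose mitochondrial reads were below 15% and ribosomal reads below 40% (Seurat 4.3.0). Cell types were named after integration, with the difference of the G2/M and S scores regressed out. The deposited matrix holds raw UMI counts. No doublet caller was run here.

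From these counts each cell was thinned to 3000 UMIs, which left out 208, 46, 59 and 91 cells of NTT, RTT, RTT_ROSA26 and RTT_PTGS12KO. Shares past the cut of 3 UMIs have exact Clopper-Pearson intervals and their differences Newcombe intervals. UMIs were summed per class and scaled to CPM by total UMIs (69332486 to 146829369 UMIs per tumour). Log2 ratios are of CPM + 1, which understates changes of low genes, and cover genes with a mean of 10 CPM or more. Poisson and binomial intervals cover counting error only. With 1 sample per group no p-value is given. The labels describe 1 tumour per condition, whereas legends of the study describe several tumours pooled per group, and either way each group is 1 sample. Named in full were, in macrophages, the 5 members of each list with the highest mean CPM and those with the highest and lowest ratio in each contrast, and of companion lists the 3 highest and the extremes. The members and lists were chosen with earlier results of these data known. Alternatives were another depth, cut, pseudocount, level filter, cell filter and scaling (TMM, edgeR 4.0.16 in R 4.3.3), leaving out types, genes or cells, and, chosen after seeing the data, leaving out each load. Some items of the lists and of the line's genotype are not reported here. Scripts (Python 3.11.15, numpy 2.4.6, scipy 1.17.1) were tested on simulated data.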

Additional observations from a re-analysis of the deposited data

Results flagged for a closer look

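Between classes of the same tumours the direction of some differences was opposite. None of these differences between classes was tested, since each tumour is 1 sample. For NTT minus RTT the share past the G2/M cut was -1.46 points in monocytes, -25.3 points in cDC2s and 6.08 points in macrophages. Within macrophages it was -14.7 points in TAM_cycling and 3.0 points in the others. On the S list it was -18.4 points in cDC2s and 14.3 points in macrophages. For RTT_ROSA26 minus RTT, cDC2s were at -20.2 points and macrophages at 12.0 points on the G2/M list, and at -12.0 and 15.5 points on the S list. For RTT_PTGS12KO minus RTT_ROSA26 the G2/M difference was -12.0 points in neutrophils, where all cells past the cut in RTT_ROSA26 and 87.6% of those below it held macrophage-marker UMIs, and 4.23 points in macrophages.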

How the results depend on the processing

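No paired analysis was possible because no group holds more than 1 sample. The gap of macrophages past the G2/M cut in RTT_ROSA26 over RTT kept its direction in all alternatives, at 9.83 points (2000 UMIs), 14.6 (5000 UMIs), 13.5 (no thinning), 13.5 (cut of 2), 9.11 (cut of 5), 9.93 (without Stmn1) and 2.27 points (without TAM_cycling). NTT minus RTT was 1.27 points without thinning, 2.92 with a cut of 5, 3.48 without Stmn1, 3.72 at 2000 UMIs and 3.0 without TAM_cycling, and the interval spanned 0 in the first 3 of these. The T cell difference was 13.2 points with a cut of 5. RTT_PTGS12KO minus RTT_ROSA26 turned to -0.19 points without TAM_cycling. Monocyte differences grew without thinning, to -7.54 (NTT minus RTT), 7.22 (RTT_PTGS12KO minus RTT_ROSA26) and -7.02 points (RTT_ROSA26 minus RTT), and were -4.32 and -4.13 (first and last, cut of 2) and -0.49 (first, cut of 5). In cDC2s RTT_PTGS12KO minus RTT_ROSA26 was -5.43 points and RTT_ROSA26 minus RTT -13.2 points without thinning. In neutrophils NTT minus RTT was -5.07 points at 5000 UMIs. RTT_ROSA26 minus RTT was 19.9 points without thinning and -4.35 without cells holding macrophage-marker UMIs, and RTT_PTGS12KO minus RTT_ROSA26 was 0.00 without them.

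The log2 ratio of G2/M to S UMIs in macrophages (NTT, RTT, RTT_ROSA26, RTT_PTGS12KO) was -0.19, 0.28, 0.0826 and 0.34 without Stmn1, -0.0050, 0.52, 0.27 and 0.54 without the 3 most abundant genes of each list, and -0.38, -0.41, -0.17 and -0.31 without TAM_cycling. In monocytes it was -1.96, -1.11 and -1.49 (NTT, RTT, RTT_PTGS12KO) without Stmn1 and -1.58, -0.65 and -1.08 (NTT, RTT_ROSA26, RTT_PTGS12KO) without the 3 most abundant.

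The S median of NTT against RTT in macrophages was 0.44 with a pseudocount of 10, 0.54 with no level filter and 0.36 without TAM_cycling. For RTT_PTGS12KO against RTT_ROSA26 it was -0.0934 (pseudocount), -0.0162 (TMM) and -0.32 (without TAM_cycling), and for RTT_ROSA26 against RTT 0.73, 0.99 (no level filter), 0.93 (TMM) and 0.48. The G2/M median of NTT against RTT was 0.69 without TAM_cycling. For RTT_PTGS12KO against RTT_ROSA26 it was 0.0873 (pseudocount), 0.22 (TMM) and -0.49 (without TAM_cycling, where 7 genes passed the filter), and for RTT_ROSA26 against RTT 0.52, 0.62 and 0.68. The cause of these changes was not tested. Leaving out each load, added after seeing the data, turned no macrophage, NK or T cell difference, but without load 2 the interval of NTT minus RTT in macrophages (2.51 points) and of RTT_PTGS12KO minus NTT in T cells (20.2 points) spanned 0.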
